A study of Mus musculus with 10 samples.

Results

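The 7 transcripts Malat1, Neat1, Meg3, Rian, Mirg, Snhg11 and Miat are long RNAs that the field describes as noncoding and as held largely in the nucleus. They were taken by symbol from the 27343 genes of the count table, and all 7 passed the filter on low counts that left 15938 genes. Whole hippocampi came from male wild-type C57BL/6J mice aged 2 months, 5 given Visudyne and 5 given vehicle. Visudyne is verteporfin, a dye that damages vessels when light strikes it. Either agent was injected into the cisterna magna, followed by red light of 689 nm over the intact skull to ablate the meningeal lymphatic vessels, and this was done again 2 weeks later. After a further 2 weeks came the Morris water maze, a test of spatial learning, and tissue was taken 3 days after it. No genetic change separated the groups, and the sample titles place both groups in the maze. Libraries were numbered 1 to 5 for Visudyne and 6 to 10 for vehicle, with 24752362 to 41073906 estimated counts each. Each is taken as a separate sample of its group, and if any came from shared tissue the p-values would measure technical spread.

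Malat1 is among the most abundant RNAs of mammalian nuclei and sits in nuclear speckles, which are stores of splicing factors. Neat1 is transcribed next to it and forms the scaffold of paraspeckles, bodies built on its long isoform together with proteins such as Nono, Sfpq and Tardbp. Meg3, Rian and Mirg are read in the same direction from the maternal copy of the imprinted Dlk1-Dio3 domain, in which the paternal copy expresses the protein genes Dlk1, Rtl1 and Dio3. Rian hosts many small nucleolar RNAs (snoRNAs), and Mirg hosts a large cluster of microRNAs. Snhg11 is a snoRNA host gene with high expression in neurons, and Miat, also called Gomafu, forms its own speckles in neuronal nuclei and binds splicing factors. Library RNA came from whole tissue, so the place of these transcripts in the cell was not measured. In bulk tissue, fewer cells of a type and less RNA per cell cannot be told apart.

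Of the 7 transcripts, only Rian passed the test between the groups. It was 1.22-fold higher after Visudyne, and every Visudyne library lay above every vehicle library. Malat1 and Snhg11 had means 1.23-fold and 1.25-fold higher without passing the test, Meg3 a mean 1.14-fold higher, and Neat1, Mirg and Miat means 0.957, 0.938 and 0.890 times those of vehicle. The test was edgeR's quasi-likelihood test on the counts of all 15938 genes, with p-values adjusted over all of them by the method of Benjamini and Hochberg and a threshold of 0.05. It called 20.5% of all genes, 8.98% higher and 11.5% lower, so 1 of 7 members is a share near that background. The annotation placed 1382 tested genes in long noncoding classes, which leave out snoRNA and microRNA genes. Of these 1382, 5.86% were called and 5.28% were called higher. Levels are counts per 1000000 (CPM), divided by library totals that edgeR adjusts with TMM factors, fold changes are Visudyne over vehicle, and log2 values carry their standard error (SE).

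Malat1 and Neat1 share an unusual 3′ end. Neither long isoform depends on a usual poly(A) tail: RNase P cuts the transcript, and U-rich stretches fold back onto an A-rich stretch as a triple helix that protects the end. These stretches are shown because the counts of Malat1 and Neat1 include non-polyadenylated RNA in a total-RNA library. The sequences below were read 5′ to 3′ from the annotated transcripts on GRCm38, with the U-rich motif and its reverse complement in the A-rich stretch in capitals, and T standing for U.
Malat1, minus strand, chr19:5795982-5796052: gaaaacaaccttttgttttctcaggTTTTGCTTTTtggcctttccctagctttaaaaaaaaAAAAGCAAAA
Neat1, minus strand, chr19:5824708-5824785: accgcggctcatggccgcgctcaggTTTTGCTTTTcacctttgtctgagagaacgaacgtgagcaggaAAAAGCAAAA
The Malat1 stretch covers bases 6621 to 6691 of a transcript of 6983 bases, with 292 bases annotated after it. The Neat1 stretch covers bases 20694 to 20771 and ends with the long isoform. TTTTGCTTTT followed within 60 bases by AAAAGCAAAA on the transcript's strand was found in 2 of 55450 longest transcripts, which were these 2. Either motif alone occurred in 1.37% and 1.43% of them. The A-rich motif is the last 10 bases of the Neat1 long isoform and was chosen after that end had been seen, and a match is a description of the letters only.

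Malat1 (chromosome 19, 5795690 to 5802672, minus strand, GRCm38) was the most abundant of the 7. It had 3359, 3495, 2428, 3481 and 2695 CPM in Visudyne libraries 1 to 5 and 2018, 2498, 2218, 2979 and 2807 CPM in vehicle libraries 6 to 10. Visudyne libraries 1, 2 and 4 lay above all vehicle libraries, while libraries 3 and 5 lay within the vehicle range. The means were 3092 ± 496 and 2504 ± 399 CPM (SD, n = 5 each), a log2 difference of 0.30 (SE 0.13) with an edgeR adjusted p of 0.102. DESeq2 gave Malat1 an adjusted p of 0.0488, and limma-voom with library weights gave 0.0224. Its log2 difference was 0.09 with the GC trend removed (adjusted p = 0.688) and 0.10 with total counts (adjusted p = 0.605). Visudyne libraries 3 and 5 were also the 2 libraries with high choroid plexus transcripts, whose summed markers reached 467 and 326 CPM there. Without these libraries, a fit chosen after the data were seen, Malat1 was 0.46 higher on the log2 scale (SE 0.12, edgeR adjusted p = 0.0347).

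Neat1 (chromosome 19, 5824708 to 5845478, minus strand) lies 22036 bases from Malat1, on its upstream side. It was expressed at 17.5, 15.2, 14.2, 18.3 and 15.8 CPM in the Visudyne libraries and at 15.4, 15.6, 13.6, 23.2 and 16.9 CPM in the vehicle libraries. The groups overlapped almost completely, and the highest value was that of vehicle library 9. Means of 16.2 ± 1.69 and 16.95 ± 3.69 CPM (SD, n = 5 each) gave a log2 difference of -0.06 (SE 0.13, edgeR adjusted p = 0.741). The sign of this difference turned to 0.07 when vehicle library 9 was left out.

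**Figure D1:**
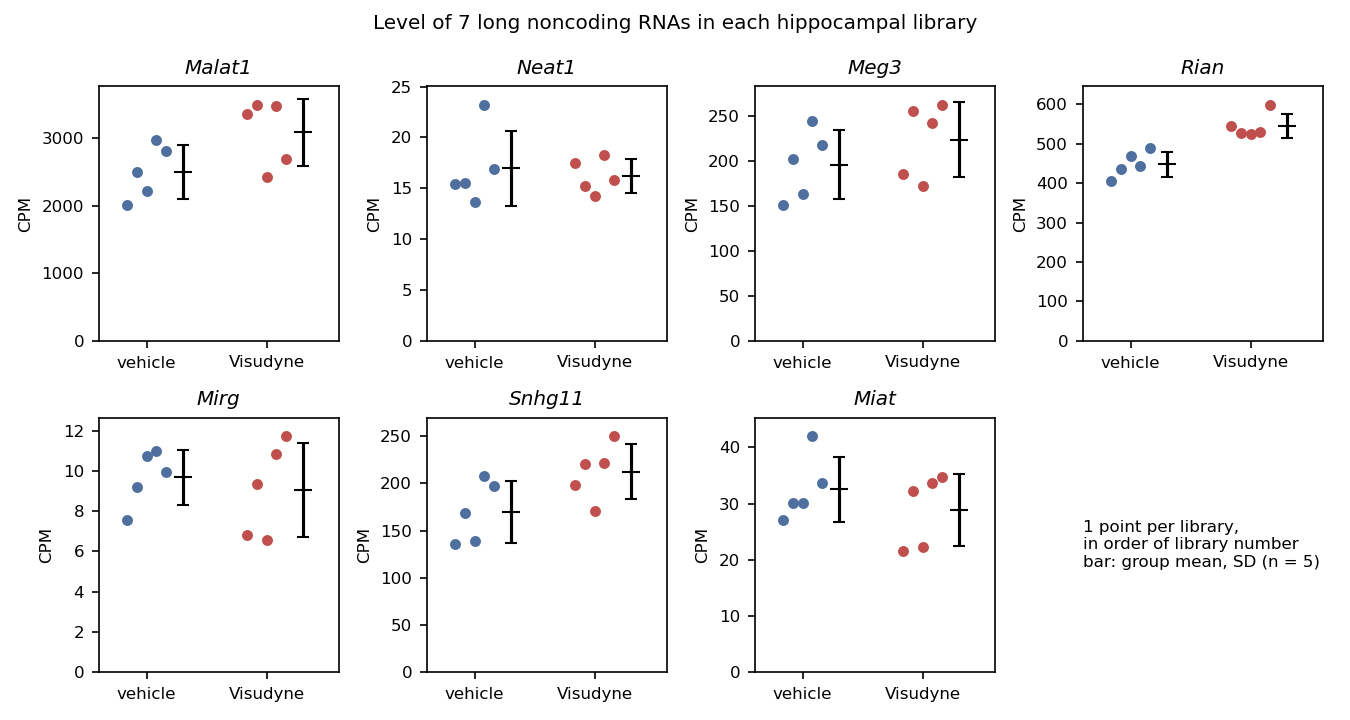
CPM of each transcript (y axis, linear, from 0, with its own scale per panel) in the vehicle libraries (blue) and Visudyne libraries (red), 1 point per library, with the group mean and SD beside them (n = 5). The groups separate for Rian, where the lowest Visudyne library has 525 CPM and the highest vehicle library 488 CPM, and overlap for the other 6.

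Rian (chromosome 12, 109603940 to 109661716, plus strand) had 545, 526, 525, 530 and 598 CPM in the Visudyne libraries. In the vehicle libraries it had 404, 437, 468, 443 and 488 CPM. The groups did not overlap, which was so for 12.5% of all tested genes and, with Visudyne higher, for 5.25%. The means were 545 ± 31.0 and 448 ± 32.0 CPM (SD, n = 5 each), a log2 difference of 0.28 (SE 0.065, edgeR adjusted p = 0.0254), drawn from 12398 to 22939 counts per library. The adjusted p rose to 0.0639 without Visudyne library 3, to 0.0736 without vehicle library 6 and to 0.0552 without vehicle library 9, with log2 differences of 0.30, 0.24 and 0.27. These fits called 27, 10 and 309 genes, against 3261 with all libraries. The unadjusted edgeR p of Rian was 0.00159, 0.00339 and 0.00198 in them, against 0.000879 with all libraries. Without both Visudyne libraries 3 and 5 the difference was 0.25 (adjusted p = 0.0394).

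The base composition of the libraries moved with the groups, and Rian is the member with the lowest GC content, 35.8% in its longest transcript. The slope of log2 CPM on GC, per 10 percentage points and relative to the mean of all libraries, was -0.51, -0.11, -0.21, -0.13 and 0.01 in the Visudyne libraries. It was 0.28, 0.15, 0.15, 0.39 and -0.02 in the vehicle libraries, a negative slope meaning that AT-rich transcripts are relatively more abundant in that library. When each library's trend on GC was subtracted, the Rian difference was -0.04 on the log2 scale (SE 0.087, adjusted p = 0.803). With the slope as a covariate in edgeR, the Rian difference was 0.25 (SE 0.089, adjusted p = 0.692), and this fit called 0 of 15938 genes, with 1050 at an unadjusted p under 0.05. Scaling to total counts instead of TMM gave Rian 0.09 (SE 0.086, adjusted p = 0.495), a setting in which the median of all genes moved from 0.01 to -0.19. Scaling moves all genes of a library alike, so the distance of Rian from that median gives no separate test of the Rian difference.

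**Figure D2:**
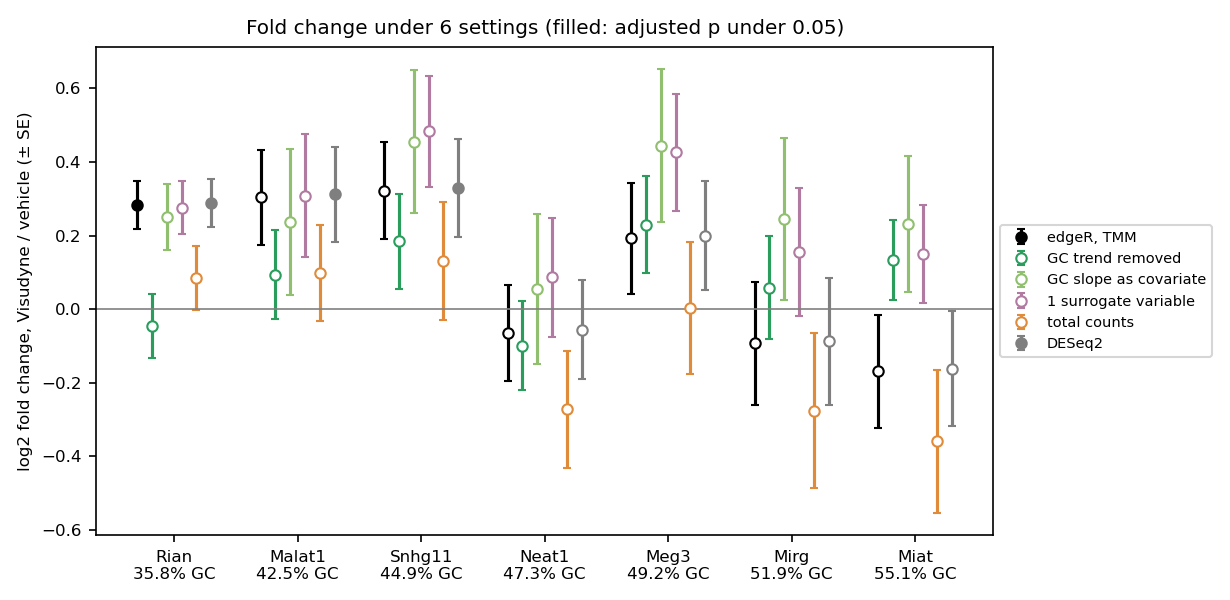
Log2 fold change of each transcript with its SE (y axis), ordered from left to right by the GC content of its longest transcript, under 6 of the settings; filled points have an adjusted p under 0.05. Rian is at 0.28 in the edgeR fit and at -0.04 once the GC trend is removed, while Malat1, Meg3 and Snhg11 are above 0 in all 6.

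Meg3 (chromosome 12, 109541001 to 109571726, plus strand) heads the row of maternal transcripts. It had 186, 257, 172, 243 and 263 CPM in the Visudyne libraries and 152, 202, 164, 245 and 218 CPM in the vehicle libraries. Each group spanned low and high libraries, and the groups overlapped. Means of 224 ± 42.0 and 196 ± 38.5 CPM (SD, n = 5 each) differed by 0.19 (log2, SE 0.15, edgeR adjusted p = 0.357). Removal of the GC trend gave 0.23 (adjusted p = 0.320). Of 2 RefSeq promoters of Meg3, the one at its annotated start (GRCm38.p6, plus strand, chr12:109540746-109541045) is shown because it is the start of the transcribed row, and Meg3 and its downstream neighbours did not all move alike. In it the cyclic AMP response element TGACGTCA and the TATA-box motif TATATAA, which is present on both strands in an overlap, are in capitals.
Meg3 promoter: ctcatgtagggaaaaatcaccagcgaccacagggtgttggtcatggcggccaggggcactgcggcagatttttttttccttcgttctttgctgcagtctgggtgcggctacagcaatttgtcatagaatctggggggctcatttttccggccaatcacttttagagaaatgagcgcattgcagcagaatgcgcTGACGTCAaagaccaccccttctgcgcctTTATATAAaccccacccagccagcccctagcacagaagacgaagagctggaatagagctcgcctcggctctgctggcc
Promoters were matched for 6 of the 7 members, and of these only this Meg3 promoter held either motif; the second Meg3 promoter, further into the gene, held neither. TGACGTCA was present in 588 of 32851 RefSeq promoters of the same length (1.79%) and TATATAA in 1065 (3.24%), both strands being searched.

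Mirg (chromosome 12, 109729764 to 109749460, plus strand) lies downstream of Rian. It was low, at 6.81, 9.36, 6.58, 10.8 and 11.7 CPM in the Visudyne libraries and 7.59, 9.18, 10.7, 11.0 and 9.92 CPM in the vehicle libraries. Visudyne libraries 1 and 3 were the 2 lowest of all, and Visudyne library 5 was the highest. The means were 9.06 ± 2.31 and 9.68 ± 1.37 CPM (SD, n = 5 each), a log2 difference of -0.09 (SE 0.17, edgeR adjusted p = 0.703), and its sign differed between settings. Its gene body holds 14 annotated microRNA hairpins with 26 mature microRNAs, against 3 hairpins and 13 snoRNA genes in Rian and 1 hairpin in Meg3. Across the mature microRNAs hosted by the 3 transcripts, only 1 seed (bases 2 to 8, in capitals) occurred more than once, in this pair from Mirg:
mmu-miR-453: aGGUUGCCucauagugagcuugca
mmu-miR-496a-5p: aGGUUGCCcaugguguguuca
The library kit was for long RNA, so mature microRNAs were not measured, and these sequences, from RefSeq, describe the host only.

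Within the imprinted domain, ratios of 2 transcripts in the same library do not depend on library scaling. For Mirg over Meg3 the log2 ratio of counts was -4.77, -4.78, -4.71, -4.49 and -4.49 in the Visudyne libraries and -4.32, -4.46, -3.93, -4.48 and -4.46 in the vehicle libraries. The groups did not overlap, although the nearest libraries almost touched at -4.488 and -4.481. Their means differed by -0.32, and the exact two-sided permutation test gave p = 0.00794, the smallest that 5 libraries against 5 allow (adjusted p = 0.0159 over 4 ratios). Of single tested genes 12.5% did not overlap between the groups, and the share of ratios that do so was not measured. Mirg over Rian differed by -0.41 with overlapping groups (exact permutation p = 0.0476, adjusted p = 0.0635). Rian over Meg3 differed by 0.09 (exact permutation p = 0.563), with 1.81 to 3.04 Rian counts per Meg3 count over the 10 libraries. In an alternative chosen after the data were seen, with the GC trend removed, these 3 differences became -0.19 for Mirg over Meg3 (exact permutation p = 0.119), 0.09 for Mirg over Rian (exact permutation p = 0.516) and -0.28 for Rian over Meg3 (exact permutation p = 0.183).

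Neat1 over Malat1 was the fourth ratio. Its log2 value was -7.58, -7.84, -7.42, -7.57 and -7.42 in the Visudyne libraries and -7.03, -7.33, -7.35, -7.00 and -7.37 in the vehicle libraries. Every Visudyne library lay below every vehicle library, with means of -7.57 ± 0.17 and -7.22 ± 0.18 (SD, n = 5 each). The difference was -0.35 (exact two-sided permutation p = 0.00794, adjusted p = 0.0159), and it remained between -0.39 and -0.28 when any single library was left out. It was -0.17 with the GC trend removed (exact permutation p = 0.151). As for Mirg over Meg3, the share of other ratios that separate the groups was not measured, while 12.5% of single tested genes did so. Neat1 has a GC content of 47.3% and Malat1 one of 42.5%.

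**Figure D3:**
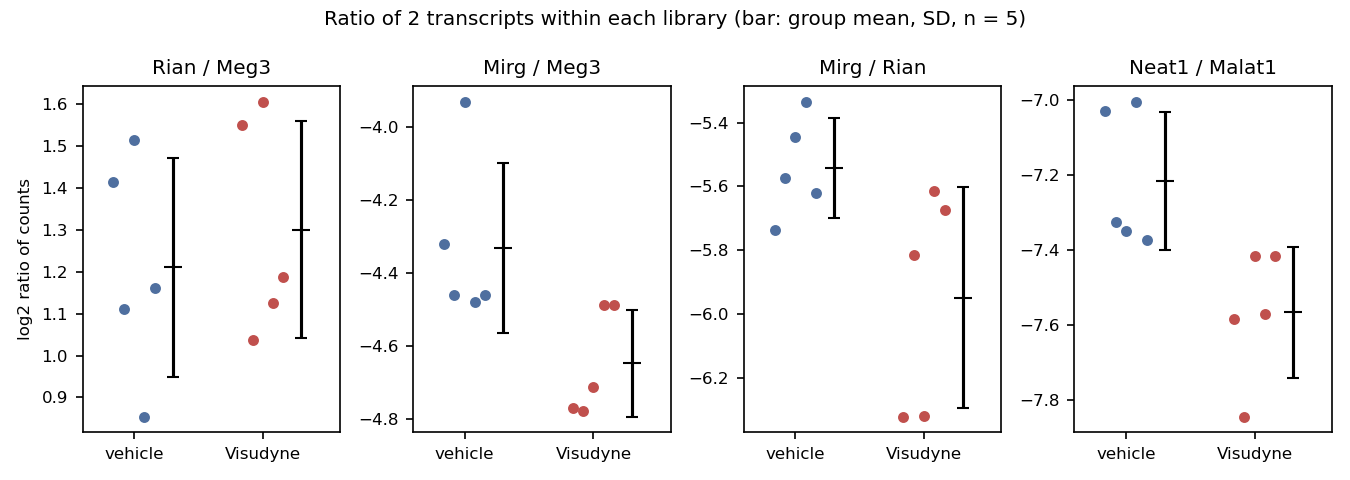
Log2 ratio of the counts of 2 transcripts within each library (y axis, own scale per panel, not starting at 0), for vehicle (blue) and Visudyne (red), with group mean and SD (n = 5). Visudyne libraries lie below all vehicle libraries for Mirg over Meg3 and for Neat1 over Malat1, and overlap with them for the other 2 ratios.

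Between Dlk1 and the end of Mirg, 13 transcripts were tested. The 11 on the plus strand from Meg3 onward had a median log2 difference of 0.28, 9 of them were above 0, and 2 were called higher and 0 lower by edgeR's test. The median of all tested long noncoding genes was 0.19, with 5.28% called higher, and that of all genes 0.01. The long noncoding set leaves out snoRNA and microRNA genes, which are among the 11, so the sets differ in class. Besides Rian, the gene of the 11 called higher was Gm26945, a predicted noncoding RNA inside the Rian gene body on the same strand. It is named here after its values were seen. It had 15.1 ± 5.15 CPM after Visudyne and 9.11 ± 1.90 CPM after vehicle (SD, n = 5 each), a log2 difference of 0.74 (SE 0.21, adjusted p = 0.0353). Its counts came to 2.43% of those of Rian, and reads of the 2 overlapping genes may be shared between them. It was 0.47 with the GC trend removed (adjusted p = 0.221) and remained called in 4 of 10 fits that left out a library. The snoRNA genes inside Rian that passed the filter, Gm24564, Gm23600 and DQ267102, had log2 differences of 0.72 (SE 0.25), 0.62 (SE 0.22) and 0.26 (SE 0.27), none of which passed the test. None had over 78 counts in any library. Their reads may also be shared with Rian, whose gene body holds them on the same strand. The kit was for long RNA, so these values are not levels of mature snoRNAs.

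Of the protein genes of the domain, Dlk1, which encodes a Notch-like membrane protein, was 1.19, 1.18, 1.12, 1.12 and 1.62 CPM in the Visudyne libraries. In the vehicle libraries it was 0.391, 0.285, 0.272, 0.305 and 0.670 CPM. All Visudyne libraries lay above all vehicle libraries, at 10 to 62 counts per library, and the fold change was 3.33 (log2 1.73, SE 0.26, edgeR adjusted p = 0.0154). Its log2 difference was 1.98 with the GC trend removed (adjusted p = 0.0160), and without Visudyne libraries 3 and 5 it was 1.63 (adjusted p = 0.0310). It remained called in 9 of 10 fits that left out 1 library, with an adjusted p of 0.0597 without vehicle library 6. Rtl1, a retrotransposon-derived gene read from the opposite strand, had 4.32 ± 1.18 and 4.01 ± 0.838 CPM (SD, n = 5 each; log2 0.11, SE 0.21, edgeR adjusted p = 0.713). Of 9 tested genes flanking the domain, 0 were called higher and 1 lower, the tryptophanyl-tRNA synthetase gene Wars (log2 -0.47, SE 0.13, edgeR adjusted p = 0.0311; -0.25 with the GC trend removed, adjusted p = 0.0856). Of all genes 8.98% were called higher and 11.5% lower, so 1 of 9 is a share near that background.

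**Figure D4:**
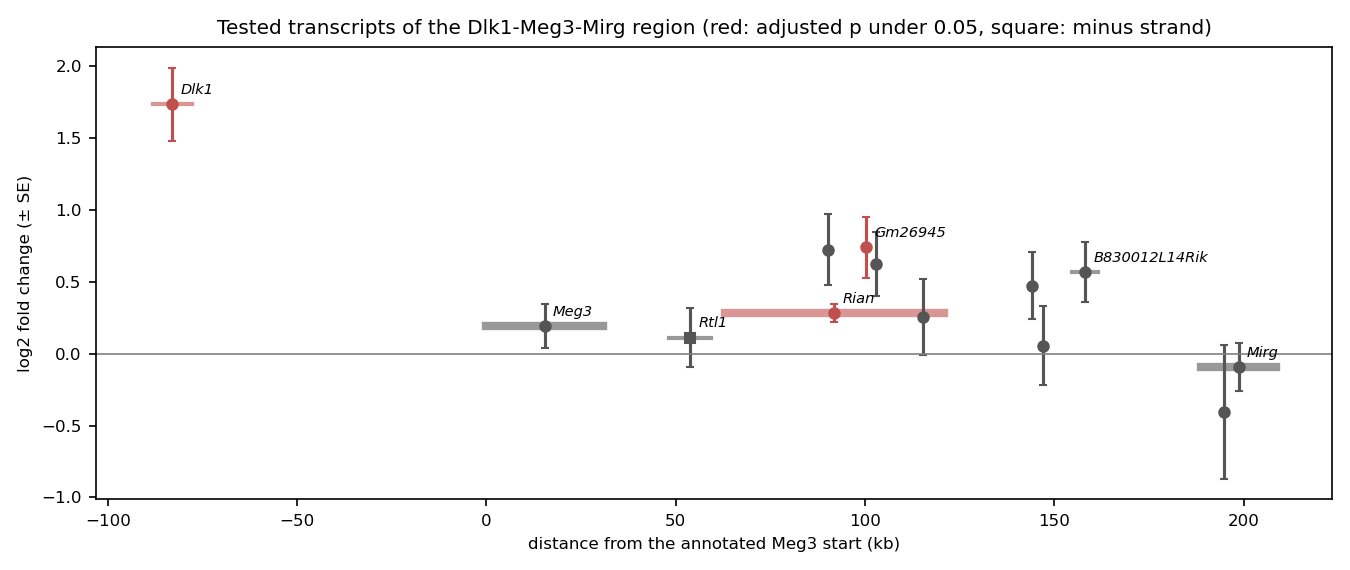
Log2 fold change with SE (y axis) of the 13 tested transcripts from Dlk1 to Mirg against their distance from the annotated Meg3 start in kb (x axis); horizontal bars span each gene, circles are plus strand, squares minus strand, and red marks an adjusted p under 0.05. Dlk1 at 1.73, Gm26945 at 0.74 and Rian at 0.28 are the red points, and unlabelled points are snoRNA or microRNA genes.

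Snhg11 (chromosome 2, 158375638 to 158386145, plus strand) is annotated as protein coding in GENCODE M21, against its usual description as a noncoding snoRNA host. Its gene body holds 2 snoRNA genes. It had 199, 220, 171, 221 and 250 CPM in the Visudyne libraries and 136, 169, 139, 208 and 197 CPM in the vehicle libraries. All 5 Visudyne libraries lay above the vehicle mean, but the groups overlapped. The means were 212 ± 29.2 and 170 ± 32.7 CPM (SD, n = 5 each), a log2 difference of 0.32 (SE 0.13, edgeR adjusted p = 0.0913). DESeq2 gave an adjusted p of 0.0425 and limma-voom with library weights 0.0225, and with the GC trend removed the difference was 0.18 (adjusted p = 0.417).

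Miat (chromosome 5, 112213228 to 112229395, minus strand) has the highest GC content of the 7, at 55.1%. Its values were 21.6, 32.3, 22.4, 33.7 and 34.6 CPM in the Visudyne libraries and 27.0, 30.0, 30.1, 41.9 and 33.6 CPM in the vehicle libraries. Visudyne libraries 1 and 3 lay below all vehicle libraries, and the other 3 lay within the vehicle range. Means of 28.9 ± 6.39 and 32.5 ± 5.75 CPM (SD, n = 5 each) differed by -0.17 (log2, SE 0.15, edgeR adjusted p = 0.434), and with the GC trend removed by 0.13 (adjusted p = 0.498). Of its protein partners, the splicing factor genes Celf1 and Sf1 were tested and neither was called.

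Per kilobase of annotated exon, the levels of the 7 ran from Malat1 at 401 CPM, the mean of all 10 libraries, through Rian at 27.2, Snhg11 at 22.4, Meg3 at 11.6, Miat at 3.31 and Mirg at 1.28 to Neat1 at 0.798. The ranges over libraries of Rian and Snhg11 overlapped, with Rian higher in 9 of 10 libraries. Those of Mirg and Neat1 also overlapped, with Mirg higher in all 10 libraries. By this length, all other neighbours in the order had ranges that did not overlap. With the longest transcript as the length, the overlaps changed. Mirg then ran from 1.72 to 3.06 CPM per kilobase and Miat from 2.36 to 4.58, and these ranges overlapped. The ranges of Rian and Snhg11 no longer overlapped in that setting, nor did those of Mirg and Neat1. For Neat1 both lengths are the 20771 bases of its long isoform, although 4 transcripts are annotated. Counts from shorter transcripts were not told apart, and they would make its level per kilobase too low. Its last place therefore rests on that length. Together the 7 took 0.562% to 0.809% of the nuclear-encoded counts in the Visudyne libraries and 0.512% to 0.772% in the vehicle libraries.

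Meg3, Snhg11, Miat and Mirg varied together from library to library, though not every pair of them passed the threshold. After each group's mean was removed, the log2 CPM of Meg3 and Snhg11 had a Pearson r of 0.95 over the 10 libraries (permutation within groups, p = 0.000139, adjusted p = 0.00292 over 21 pairs) and a Spearman rho of 0.95 (p = 0.000347, adjusted p = 0.00729). Without the 2 libraries farthest from the median of Meg3, r was 0.90. Meg3 and Miat had r = 0.92 and rho = 0.92 (permutation p = 0.00111 and 0.00236, adjusted p = 0.00778 and 0.0124), with r = 0.89 after the same step. Mirg and Miat had r = 0.90 and rho = 0.92 (permutation p = 0.00257 and 0.00167, adjusted p = 0.0135 and 0.0124), with r = 0.81 after it. Snhg11 and Miat had r = 0.82 and rho = 0.87 (permutation p = 0.00104 and 0.00188, adjusted p = 0.00778 and 0.0124), with r = 0.72 after it. These 4 of 21 pairs passed, and 20 of 21 had an r above 0. The remaining pairs within this group, Meg3 with Mirg (r = 0.79) and Mirg with Snhg11 (r = 0.68), did not pass. Each had an adjusted permutation p of 0.0644 for r and 0.0556 for rho. All pairs share the same libraries and their depth, RNA composition and base composition.

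Rian did not take part in this shared pattern to the same extent. Its r was 0.41 with Meg3 (permutation p = 0.273, adjusted p = 0.358), its neighbour upstream, and 0.56 with Mirg (permutation p = 0.0826, adjusted p = 0.158), and rho was 0.49 and 0.48 (permutation p = 0.182 and 0.198, adjusted p = 0.255 and 0.260). Without the 2 farthest libraries these r were 0.01 and 0.42. Malat1 and Neat1 had r = 0.71 and rho = 0.75 (permutation p = 0.0215 and 0.0213, adjusted p = 0.0644 and 0.0560), with r = 0.71 without the 2 farthest libraries. The differences between these correlations were not tested. With the GC trend removed the Meg3 and Snhg11 r was 0.95 (permutation adjusted p = 0.00729), and 6 of 21 pairs passed by r but only 1, Meg3 and Snhg11, by rho. The 6 included Malat1 with Meg3 (r = 0.82, permutation adjusted p = 0.0379) and Malat1 with Miat (r = 0.84, permutation adjusted p = 0.0292). The other 3 pairs that had also passed before the GC trend was removed had an adjusted permutation p of 0.0565 for rho in that setting.

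**Figure D5:**
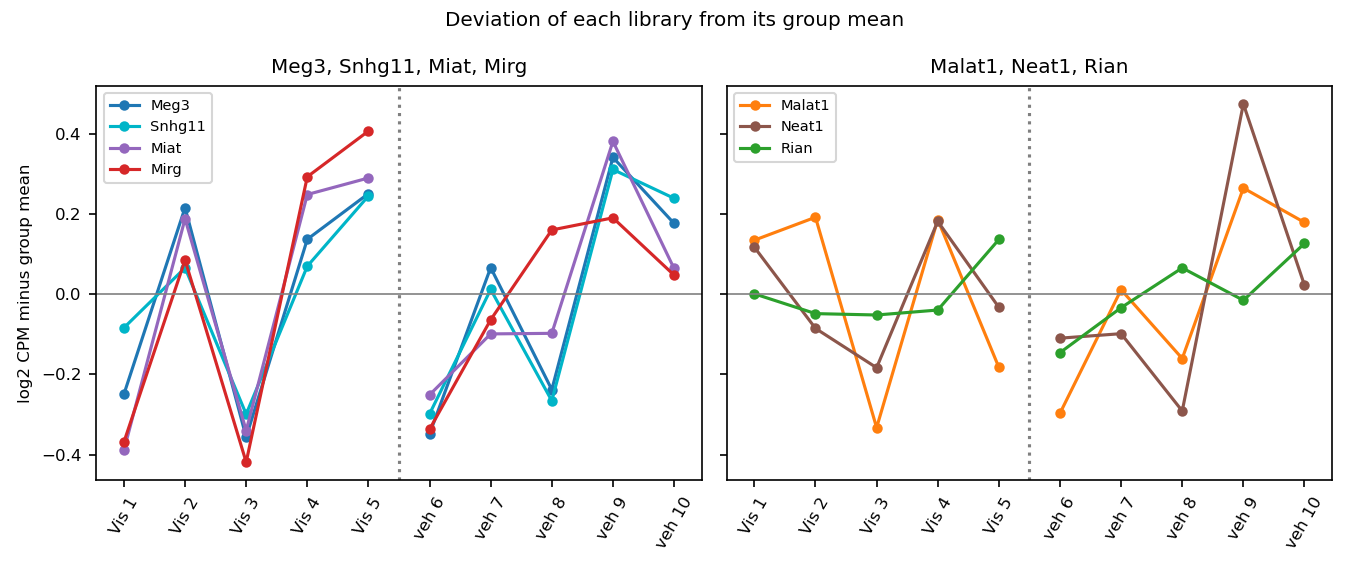
Log2 CPM minus the group mean (y axis) in each library (x axis; Vis, Visudyne, veh, vehicle), with lines that only link the values of 1 transcript, since libraries have no order. On the left, Meg3, Snhg11, Miat and Mirg are all low in Visudyne library 3 and vehicle library 6 and high in Visudyne library 5 and vehicle library 9; on the right, Rian stays within 0.15 of its group mean.

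Among 11680 genes averaging 1 CPM or more over the 10 libraries, those whose log2 CPM was most like each member were found by Pearson r, as a description. Group means were not removed for this r, unlike for the correlations above, so differences between the groups enter it. The highest r of so many genes over 10 libraries is high in part by selection, and this part was not tested. For Meg3 the list held Snhg11 in second place (r = 0.92), and for Mirg it held Miat in the third (r = 0.90). Malat1 was most like Tnfrsf11a (r = 0.96), Eml5 (r = 0.94) and the noncoding Dleu2 (r = 0.93), and Rian most like Erg28 (r = 0.97), Grp (r = 0.96) and Rsad1 (r = 0.93). Snhg11 was most like Olfr613 (r = 0.96), Haus8 (r = 0.95) and Srrm4os (r = 0.94), and Miat most like Brat1 (r = 0.96), Usp36 (r = 0.93) and Tctn1 (r = 0.93). Neat1 was most like Acad12 (r = 0.94), Crtc3 (r = 0.93) and Hacl1 (r = 0.93). The remaining genes named by this rule were March3 (r = 0.94) and Hhat (r = 0.92) for Meg3, and Ppp1r14c (r = 0.92) and Timp4 (r = 0.91) for Mirg.

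Among proteins of the nuclear bodies in which Neat1 and Malat1 are found, 9 of 25 paraspeckle protein genes were called higher and 1 lower, with a median log2 difference of 0.17, against 8.98% of all genes called higher and a median of 0.01. The RNA-binding proteins Tardbp (log2 0.27, SE 0.060, edgeR adjusted p = 0.0246), Cpsf6 (0.36, SE 0.086, adjusted p = 0.0266), Taf15 (0.44, SE 0.11, adjusted p = 0.0273) and Hnrnpr (0.28, SE 0.070, adjusted p = 0.0281) rose. Of 30 nuclear speckle protein genes, 9 were called higher and 2 lower, with a median of 0.15. The splicing factor Rbm25 (0.32, SE 0.069, edgeR adjusted p = 0.0238) and the kinase Clk4 (0.30, SE 0.071, adjusted p = 0.0263) rose, and Acin1 (-0.42, SE 0.090, adjusted p = 0.0234) and the helicase Ddx39b (-0.77, SE 0.17, adjusted p = 0.0246) fell. With the GC trend removed, 2 of 25 and 0 of 30 were called higher, 0 and 1 lower, and the medians were 0.04 and 0.02. Taf15 remained called in that fit (log2 0.49, adjusted p = 0.0349), as did Ddx39b (-0.46, adjusted p = 0.0310), but when single libraries were left out Taf15 was called in 6 of 10 fits and Ddx39b in 7. Both lists had 0 genes called in either direction without Visudyne library 3 and without vehicle library 6, and without vehicle library 9 the counts were 2 higher of 25 and 0 of 30. Without both Visudyne libraries 3 and 5 they were 6 and 10 higher, and 1 and 2 lower. With total counts no gene of either list was called higher, 3 of 25 and 5 of 30 were called lower, and the medians were -0.03 and -0.05.

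The enzymes that cut and bind the triple-helix ends were described from a list of 13 genes, of which 0 were called higher and 2 lower, with a median of -0.14, while 11.5% of all genes were called lower. The share is near that background. The 2 genes were Elac2, which encodes RNase Z (log2 -0.42, SE 0.10, edgeR adjusted p = 0.0266), and Pop5, a subunit of RNase P (-0.59, SE 0.19, adjusted p = 0.0479). Neither was called with the GC trend removed (adjusted p = 0.199 and 0.113).

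Other transcripts of the same classes gave a further comparison. Of 10 tested long noncoding RNAs outside the 7, 3 were called higher and 0 lower, with a median of 0.20 against 0.19 for all tested long noncoding genes. Of all genes 8.98% were called higher, and of all tested long noncoding genes 5.28%. Tug1 was 1.32-fold higher (log2 0.40, SE 0.10, edgeR adjusted p = 0.0293), Lncpint 2.05-fold (1.03, SE 0.27, adjusted p = 0.0294) and Ftx, which lies in the X-inactivation centre, 1.27-fold (0.35, SE 0.11, adjusted p = 0.0495). Lncpint was low, at 1.04 ± 0.229 CPM after Visudyne and 0.507 ± 0.204 CPM after vehicle (SD, n = 5 each), while Tug1 had means of 267 and 203 CPM. Lncpint remained called with the GC trend removed (log2 1.10, adjusted p = 0.0412), and the other 2 did not (adjusted p = 0.523 and 0.301). When single libraries were left out, Tug1 remained called in 6 of 10 fits, Lncpint in 3 (adjusted p up to 0.0801) and Ftx in 1, and with total counts Lncpint had an adjusted p of 0.0565. Of 10 tested snoRNA hosts outside the 7, only Snhg3 was called, 1.33-fold higher (log2 0.41, SE 0.12, edgeR adjusted p = 0.0401; 0.306 with the GC trend removed), and it remained called in 1 of 10 fits that left out a library. The median of the 10 hosts was 0.04, and 1 of 10 is a share near the 8.98% of all genes called higher.

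Around the genes, 20 tested genes within 250 kb of Malat1 held 0 called higher and 5 lower by edgeR's test, and 25 within 250 kb of Neat1 held 0 and 8, against 11.5% of all genes called lower, the windows largely sharing their genes. Frmd8, the nearest on the far side of Neat1, had a log2 difference of -0.26 (SE 0.12, edgeR adjusted p = 0.122). Of 7 genes around Miat 0 were called, with Tpst2 the nearest at 0.17 (SE 0.14, adjusted p = 0.366). Of 9 around Snhg11, 1 was called lower, and its nearest neighbours Ralgapb (0.14, SE 0.052, adjusted p = 0.0663) and Snhg17 (-0.28, SE 0.24, adjusted p = 0.397) were not called.

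Markers of cell types and RNA composition were read beside these values, and each count called can be set against the 8.98% of all genes called higher and 11.5% called lower. The summed CPM of 10 neuron markers was 5329 to 6511 in the Visudyne libraries and 4677 to 5406 in the vehicle libraries, with 2 called higher and 1 lower. Of 9 tested oligodendrocyte markers 0 were called higher and 5 lower, with sums of 2283 to 2735 and 2351 to 3167 CPM, and 3 were called lower with the GC trend removed. Sums of 8 astrocyte markers were 4747 to 6194 and 4646 to 5341 CPM, with none called. Of 10 microglia markers 1 was called higher and 1 lower, with sums of 199.7 to 246 and 182 to 205 CPM, and of 7 endothelial markers 1 was called higher, with sums of 99.7 to 113 and 88.2 to 104 CPM. Sums of the 6 tested choroid plexus markers, of 9 listed, were 467 CPM in Visudyne library 3 and 326 CPM in Visudyne library 5. They were 29.1 to 45.9 CPM in the other 8, and 2 of these 6 markers were called higher. Of the 10 markers of hippocampal subfields 1 was called higher and 3 lower, with sums of 306 to 464 and 359 to 436 CPM. Sums of the 3 tested blood markers, of 5 listed, were 3.03 to 6.37 and 1.26 to 7.27 CPM, with none called. No listed marker was at 0 in all libraries, and mitochondrial transcripts took 42.6% to 49.3% of counts after Visudyne and 40.4% to 44.1% after vehicle. The part of cell composition, choroid plexus tissue and mitochondrial RNA in the results for the 7 transcripts was not tested beyond the fits without Visudyne libraries 3 and 5 and without mitochondrial genes, in which Rian had an adjusted p of 0.0394 and 0.0258.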

How the data were processed

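Total RNA of whole hippocampus was sequenced from 10 libraries made with a stranded kit, per the labels' protocols. The submitters' processing notes name FastQC, Salmon and mm10, and with versions, settings and annotation not given in the sources used here. What the authors deposited is a table of estimated counts per gene from Salmon, in whole numbers. Symbols, positions, exon lengths and GC content of the longest transcript were read from GENCODE M21, whose GRCm38 assembly is mm10 under its other name, and 27053 of 27343 identifiers were found there.

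Counts were filtered with filterByExpr, scaled by TMM and tested with edgeR 4.0.16 (R 4.3.3) by the quasi-likelihood test, 5 Visudyne against 5 vehicle libraries, with Benjamini-Hochberg adjustment over 15938 genes. SE is the absolute log2 fold change over the square root of F. Log2 CPM used a prior count of 2. Alternatives used limma 3.58.1 (voom), DESeq2 1.42.0, sva 3.50.0 (1 surrogate variable), other scalings and filters, library GC slope as a covariate, and subtraction of each library's loess trend on GC (span 0.3). Ratios and correlations used exact enumeration of the assignments in Python 3.11.15, with ranks from scipy 1.17.1. Library totals of 24752362 to 41073906 limit the precision of low transcripts such as Mirg, with 206 to 474 counts per library. No 2 libraries of a group agreed within sampling noise (the lowest chi-square over its degrees of freedom was 13.3).

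Named were the 7 transcripts, the nearest tested neighbours, up to 4 genes of smallest p per list, and the 3 genes most like each transcript, leaving out predicted models and pseudogenes. The result for 1 further gene that the rule selects is not reported here. The transcripts and all lists were chosen with earlier results of these data known.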

Additional observations from a re-analysis of the deposited data

Results flagged for a closer look

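Rian in Visudyne library 5 stood apart from the other libraries of its group, at 598 CPM against 525 to 545 CPM in the other 4. The gap to the nearest library was 0.733 of the group's whole range, above Dixon's 95% critical value of 0.71 for 5 values. It was 1 of 22 groups of values checked, and chance marks about 1 in 20. Without this library the Rian difference was 0.24 on the log2 scale and Rian was still called (edgeR adjusted p = 0.0152). That fit called 5047 genes, against 3261 with all libraries. The unadjusted edgeR p of Rian was 0.00181 in it, against 0.000879 with all libraries.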

How the results depend on the processing

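No paired analysis was possible because the Visudyne libraries are numbered 1 to 5 and the vehicle libraries 6 to 10, so the groups share no number. Genes called numbered 3261 in the edgeR fit, 2075 without the filter, 489 with the GC trend removed, 1 with a surrogate variable, 0 with the GC slope as covariate and 10 to 5047 when 1 library was left out (27 without Visudyne library 3, 10 without vehicle library 6 and 309 without vehicle library 9). Of the 7 transcripts, 1 was called in the edgeR fit, 3 with DESeq2 and 3 with limma-voom with library weights (Rian, Malat1 and Snhg11), 0 with total counts, a surrogate variable, the GC trend removed or the GC slope, 2 without Visudyne libraries 3 and 5, and 0 to 1 when 1 library was left out. DESeq2 called 14.4% of all genes higher and limma-voom with library weights 12.1%, against 8.98% in the edgeR fit. Rian was called in 15 of 22 alternatives and reversed to -0.045 with the GC trend removed. Signs reversed for Neat1 with library weights (0.056), a surrogate variable (0.087), the GC slope (0.054), without vehicle library 9 (0.069) and without Visudyne libraries 3 and 5 (0.0075). With 1 library left out Neat1 ran from -0.14 to 0.069 and Mirg from -0.21 to 0.0020. Signs also reversed for Mirg with library weights (0.025), a surrogate variable (0.16), the GC trend removed (0.058), the GC slope (0.24) and without Visudyne library 3 (0.0020), and for Miat with a surrogate variable (0.15), the GC trend removed (0.13) and the GC slope (0.23). Meg3, Malat1 and Snhg11 were above 0 in all 22. With the GC trend removed, an alternative chosen after the data were seen, the ratio differences were -0.28 for Rian over Meg3, -0.19 for Mirg over Meg3, 0.090 for Mirg over Rian and -0.17 for Neat1 over Malat1. Without Visudyne libraries 3 and 5, also chosen then, they were -0.35 for Mirg over Meg3 (exact permutation p = 0.0536) and -0.37 for Mirg over Rian (exact permutation p = 0.0536), where fewer assignments exist. Over single libraries left out, the Rian over Meg3 difference ran from 0.00087 to 0.17, Mirg over Meg3 from -0.36 to -0.22, and Mirg over Rian from -0.49 to -0.31. With total counts 17 of 21 pairs of transcripts passed the threshold by Pearson r and 7 by Spearman rho, against 4 by either in TMM-scaled values. The cause of these changes was not tested. Levels per kilobase changed most for Rian when its longest transcript was the length, to 67.3 CPM per kilobase after Visudyne and 55.4 after vehicle.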
